A study of Mus musculus with 38 samples.

Results

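Whole bone marrow of mice given zoledronic acid (ZA) was set against whole bone marrow of untreated mice, to ask which genes differ in the marrow after ZA alone. The comparison holds 4 of the 38 libraries of the series: ZA 2 and ZA 3 against untreated 1 and untreated 2, chosen by their labels, which carry the replicate numbers used here. All came from female C57BL/6J mice of 6 to 7 weeks. ZA was given intraperitoneally at 100 µg per kg, and untreated mice had neither agent. The time from ZA to collection of the marrow is not given in the labels, and neither is whether a replicate is 1 animal or a pool, so the p-values speak only of variation among these libraries, which may be technical. The series also holds marrow of mice given ZA followed 2 days later by G-CSF (2 libraries, called combined here), and marrow of mice given G-CSF (3 libraries), the cytokine at 50 µg per kg on 3 successive days. A further set of libraries came from sorted cells that the labels call osteoclast precursors.

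ZA is a nitrogen-containing bisphosphonate. It binds bone mineral, is taken up by osteoclasts as they resorb bone, and inhibits farnesyl diphosphate synthase (Fdps) of the mevalonate pathway, which leaves small GTPases without their lipid anchors. Whole marrow consists mainly of granulocytes, erythroid precursors and B lineage cells, with macrophages, monocytes, dendritic cells and megakaryocytes as smaller populations, while osteoclasts sit on the bone surface and are rare in flushed marrow.

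The libraries carried the genes that mark marrow. The adult beta-globin gene Hbb-bs was at 154000 TPM in ZA 2 and 145000 TPM in ZA 3, against 127000 TPM in untreated 1 and 197000 TPM in untreated 2. The neutrophil calprotectin gene S100a8 was at 10400 and 12100 TPM with ZA, against 5750 and 12200 TPM untreated. Total estimated counts were 8288159 and 9234144 in ZA 2 and ZA 3, against 6236320 and 6829649 in untreated 1 and untreated 2. In CPM (counts scaled to a common library total), the limit of 3 counts that a count of 0 allows is 0.362 and 0.325 CPM with ZA and 0.481 and 0.439 CPM untreated (counting error only). Untreated 1 stood apart in its small RNA genes, which took 12.3% and 11.4% of TPM in ZA 2 and ZA 3, against 39.1% in untreated 1 and 6.46% in untreated 2. Across genes in log2 CPM, the 2 ZA libraries had r = 0.9506 with each other and the 2 untreated libraries r = 0.9366. ZA 2 had r = 0.9468 with untreated 1 and 0.9402 with untreated 2, and ZA 3 had 0.9397 and 0.9376. The untreated libraries were thus no closer to each other than to the ZA libraries. Levels below are CPM scaled by TMM, a factor per library that sets most genes level, unless TPM is named.

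Few genes passed the test. Of 14737 genes tested with edgeR's quasi-likelihood test, 5 (0.0339%) had a Benjamini-Hochberg adjusted p under 0.05: acetoacetyl-CoA synthetase (Aacs) rose with ZA (0.00679% of genes were called higher), and the deubiquitinase Usp37, the antisense gene H3f3aos and the pseudogenes Gm8116 and Rps3a2 fell (0.0271% called lower). At an unadjusted p under 0.05 there were 1394 genes (9.46%), 672 higher (4.56%) and 722 lower (4.9%). DESeq2 called 130 of 14105 genes (0.922%), 53 higher and 77 lower, among them all 5. On the log2(TPM + 1) scale limma called 22, 20 higher and 2 lower, among them 1 of the 5. The count depended on single libraries of every group: it was 20 without untreated 1 and 23 without untreated 2, each with 3 of the 5 among them, 2 without ZA 2, 0 without ZA 3, 3 without combined 1 or combined 3, 1 without G-CSF 1, and 0 without G-CSF 2 or G-CSF 3. With the ZA and untreated libraries fitted by themselves 2 genes were called, and neither was among the 5.

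The bases before the start sites of Aacs and Usp37 are shown because these are the 2 protein-coding genes that passed the test, in opposite directions. Each run is the 250 bases upstream of the RefSeq start (build GRCm38.p6), read along the gene's own strand, for Aacs chr5:125475623-125475872 on the plus strand and for Usp37 chr1:74505822-74506071 on the minus strand. The RefSeq starts differ from the gene bounds given below. The Aacs window runs past the gene's annotated start at 125475814. The Usp37 window lies inside the annotated span of the gene, 74435511 to 74544284. Capitals mark the GC box GGGCGG on either strand.
Aacs: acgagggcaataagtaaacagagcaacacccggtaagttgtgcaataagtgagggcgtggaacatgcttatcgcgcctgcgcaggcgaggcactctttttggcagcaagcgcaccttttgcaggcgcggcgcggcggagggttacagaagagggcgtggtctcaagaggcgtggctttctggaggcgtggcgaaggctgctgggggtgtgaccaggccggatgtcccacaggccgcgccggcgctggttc
Usp37: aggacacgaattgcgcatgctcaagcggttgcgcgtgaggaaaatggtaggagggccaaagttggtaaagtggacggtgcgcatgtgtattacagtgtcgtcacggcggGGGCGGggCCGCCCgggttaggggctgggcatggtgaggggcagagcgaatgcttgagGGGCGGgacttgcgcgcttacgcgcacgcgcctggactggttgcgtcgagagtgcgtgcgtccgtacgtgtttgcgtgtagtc
Both windows are GC rich, at 62.4% for Aacs and 62.8% for Usp37, above 77.5% and 78.3% of the 32817 promoter windows of that length. Usp37 held 3 GC boxes and Aacs none, where 32.7% of all windows held at least 1. Neither window held a sterol regulatory element written TCACNCCAC (1.05% of windows), a CCAAT box written CCAAT (33.8%), an E-box written CACGTG (6.02%) or a TATA box written TATAAA (12.4%), each searched on both strands. These are matches of letters in a window and no more.

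Aacs (ENSMUSG00000029482, chromosome 5, 125475814 to 125517410, GRCm38) encodes the cytosolic enzyme that activates acetoacetate to acetoacetyl-CoA for the synthesis of cholesterol and fatty acids. It was at 76.3 and 90.3 CPM in ZA 2 and ZA 3, against 21.0 and 17.1 CPM in untreated 1 and untreated 2. Both ZA libraries lay far above both untreated libraries. The means were 83.3 ± 9.88 CPM with ZA and 19.1 ± 2.74 CPM untreated (SD, n = 2 each), a log2 difference of 2.13 ± 0.23 (SE; edgeR adjusted p = 0.0408). The 5 libraries of mice given G-CSF, with or without ZA, had 44.0 to 67.1 CPM and so also lay above both untreated libraries. When each of the 9 marrow libraries was left out in turn, the difference ran from 1.98 to 2.28 and was called in 3 of 9 fits.

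Usp37 (ENSMUSG00000033364, chromosome 1, 74435511 to 74544284) encodes a deubiquitinase that stabilises cyclin A and other proteins at the entry into S phase. It was at 17.8 and 16.5 CPM in ZA 2 and ZA 3, against 61.5 and 95.5 CPM in untreated 1 and untreated 2. Again the groups did not overlap, and the untreated libraries were the more spread. The log2 difference was −2.20 ± 0.26 (edgeR adjusted p = 0.0476), and the 5 libraries with G-CSF, at 21.1 to 28.7 CPM, lay near the ZA libraries. Leaving out each library in turn gave −2.48 to −1.84, called in 2 of 9 fits. The gene Cnot9, which overlaps Usp37 on the other strand and encodes a subunit of the CCR4-NOT deadenylase, was at 50.9 and 50.8 CPM with ZA against 45.4 and 42.8 CPM untreated.

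The other 3 called genes are of uncertain identity, since each shares sequence or its locus with another gene and the labels do not say whether strand was kept. H3f3aos (chromosome 1, 180813776 to 180816859) is annotated antisense to the histone gene H3f3a. It was at 1.79 and 0.678 CPM with ZA, against 33.7 and 23.3 CPM untreated, a log2 difference of −4.54 ± 0.55 (edgeR adjusted p = 0.0486), while H3f3a itself was at 1270 and 1090 CPM with ZA against 1620 and 1470 CPM untreated and was not called (edgeR adjusted p = 0.581). In the 5 libraries with G-CSF H3f3aos was at 0.0578 to 0.569 CPM, so the untreated pair was the high one among all 9. With each library left out in turn, H3f3aos was called in 1 of 9 fits, Gm8116 in 4 and Rps3a2 in 0. Gm8116 (chromosome 9, 78820638 to 78821838), a processed pseudogene, had no count in either ZA library and 5.20 and 7.02 CPM in the untreated libraries. Against a floor of 3 counts over the 2 ZA libraries, it was at least 29.4-fold lower with ZA (edgeR adjusted p = 0.0408). The processed pseudogene Rps3a2 (chromosome 14, 88123017 to 88123808) was at 0.413 and 0.113 CPM with ZA, against 4.29 and 3.10 CPM untreated (log2 difference −3.80 ± 0.47, edgeR adjusted p = 0.0486). Its parent gene of the small ribosomal subunit, Rps3a1, was at 1300 and 1290 CPM with ZA and at 1370 and 1040 CPM untreated. Rps3a2 reached 366 to 582 CPM in the 5 libraries with G-CSF, so those groups lay far above both ZA and untreated marrow. The MHC class II gene H2-Eb1 was divided the other way. It was at 101 and 148 CPM with ZA and 129 and 157 CPM untreated, against 4.04 to 7.11 CPM in the 5 libraries with G-CSF. Whether such divisions come from G-CSF or from another difference between the mice, such as strain, was not tested.

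To look beyond the called genes, 24 protein-coding genes were named by a rule: the 12 higher and 12 lower with the smallest p-values among those that averaged at least 5 CPM and whose ZA and untreated libraries did not overlap. Without the p-value, both ZA libraries lay above both untreated libraries in 19.6% of all genes tested and below them in 17.7%. Apart from Aacs and Usp37 none of the 24 passed the edgeR test (adjusted p from 0.125 to 0.243), although DESeq2 called all 24. Their ZA and untreated values are therefore a description of genes chosen for them. The last gene taken on the higher side was Rccd1 (unadjusted p = 0.00098) and the first left out Mphosph8 (0.00107), and on the lower side Polr2b (0.000508) and Dennd4c (0.00066).

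**Figure D1:**
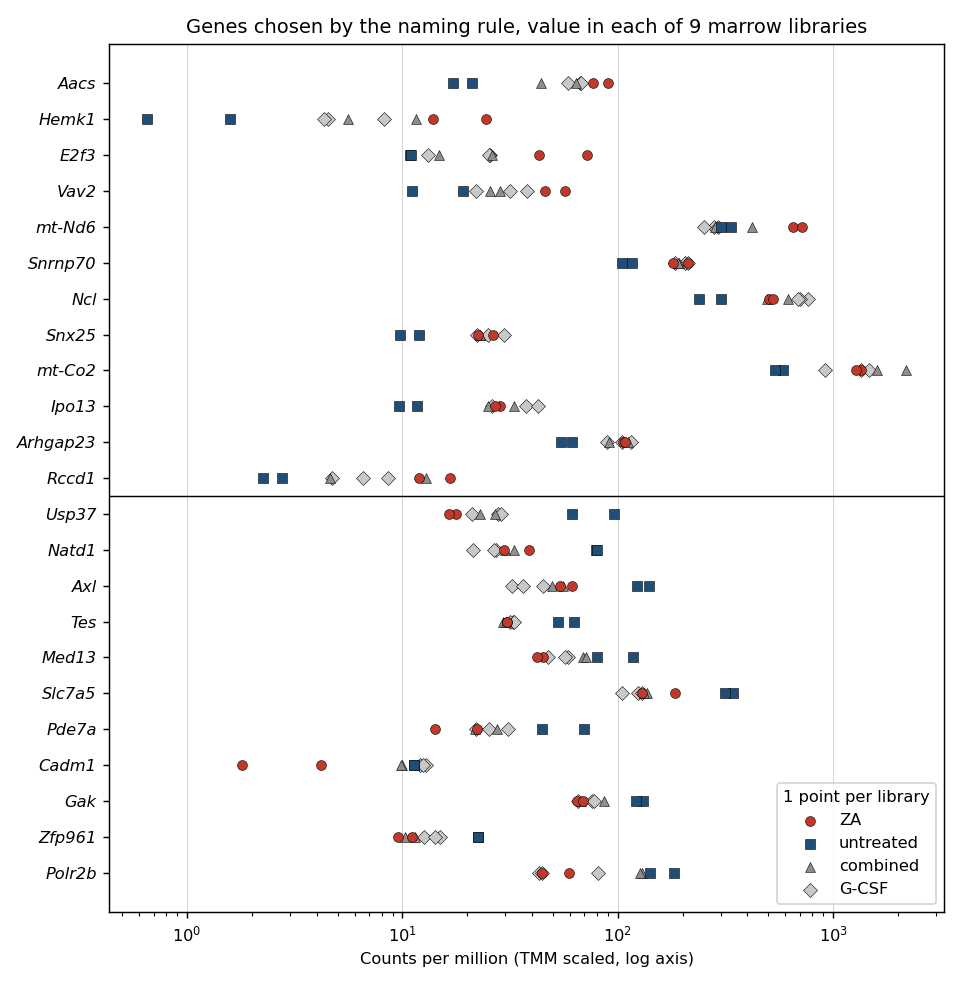
CPM (TMM scaled, log axis) of 23 of the 24 genes named by the rule, 1 point per library: ZA (2), untreated (2), combined (2) and G-CSF (3). The 12 genes above the line were chosen as higher with ZA and the 11 below it as lower. For most genes the grey points of the groups with G-CSF lie nearer to the ZA points than to the untreated points, whereas for mt-Nd6, Cadm1 and E2f3 they lie nearer to untreated.

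Among the genes on the higher side, Hemk1, a methyltransferase of translation release factors, was at 24.4 and 13.9 CPM in the ZA libraries, against 1.58 and 0.653 CPM in the untreated libraries. E2f3, a transcription factor of the G1 to S transition, was at 71.9 and 43.0 CPM with ZA, against 10.8 and 10.9 CPM untreated. The guanine nucleotide exchange factor Vav2, which activates small GTPases that carry a prenyl anchor, was at 46.0 and 56.7 CPM with ZA, against 11.1 and 19.1 CPM untreated. These 3 genes had the largest differences on that side next to Aacs and Rccd1 (4.14 ± 0.62, 2.40 ± 0.42 and 1.75 ± 0.32 on the log2 scale). The U1 spliceosome protein gene Snrnp70 was at 181 and 212 CPM with ZA, against 116 and 105 CPM untreated. Nucleolin (Ncl), a nucleolar protein of ribosome assembly, was at 502 and 525 CPM with ZA, against 302 and 239 CPM untreated. The nuclear import receptor Ipo13 was at 28.4 and 26.9 CPM with ZA, against 11.7 and 9.63 CPM untreated. In Snrnp70, Ncl and Ipo13 the replicates of each group lay close together.

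On the lower side, Axl, a receptor tyrosine kinase by which macrophages recognise dying cells, was at 54.0 and 61.4 CPM with ZA, against 139 and 123 CPM untreated (log2 difference −1.18 ± 0.20, edgeR adjusted p = 0.17, DESeq2 adjusted p = 0.000113). The amino acid transporter gene Slc7a5 was at 185 and 130 CPM with ZA, against 344 and 315 CPM untreated. Both genes had about the level of the ZA libraries in the groups with G-CSF, at 32.2 to 55.8 CPM for Axl and 104 to 136 CPM for Slc7a5. The RNA polymerase II subunit gene Polr2b was at 59.4 and 44.4 CPM with ZA, against 141 and 182 CPM untreated, and the Mediator subunit gene Med13 at 45.1 and 42.2 CPM with ZA, against 80.0 and 118 CPM untreated. The adhesion molecule gene Cadm1 was at 1.79 and 4.18 CPM with ZA, against 11.3 CPM in each untreated library. For Cadm1 it was the ZA pair that stood apart, since the groups with G-CSF had 9.79 to 12.9 CPM.

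Measured as distance between mean log2 levels, the 5 libraries with G-CSF lay nearer to ZA than to untreated in 20 of the 24 genes (83.3%), against 63.7% of all 10473 tested genes that averaged at least 5 CPM. Among the 1071 of these with an unadjusted p under 0.05 the share was 78.5%. Both sets were chosen for the ZA and untreated values that the distance uses, in a fit that took its spread partly from the 5 libraries. Their shares therefore depend on that choice and are no separate result. Whether anything besides G-CSF sets these 5 libraries apart was not tested.

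The gene lists below hold pathway members and cell type markers. A bulk library cannot tell fewer cells of a type from less RNA per cell. Of 34 lists, 2 had a member called by edgeR, Aacs in fatty acid synthesis and Usp37 among the deubiquitinases. For the others the description rests on how many members had ZA and untreated libraries that did not overlap, read against 19.6% above and 17.7% below for all genes, and on the list's median log2 difference, read against 0.01 for all genes. A list's sign was checked in 7 settings (the edgeR fit, protein-coding genes only, leaving out each of the 4 libraries, and log2 TPM after subtracting the all-gene median, which was 0.32 on that scale). The sign held in all 7 for 15 lists.

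**Figure D2:**
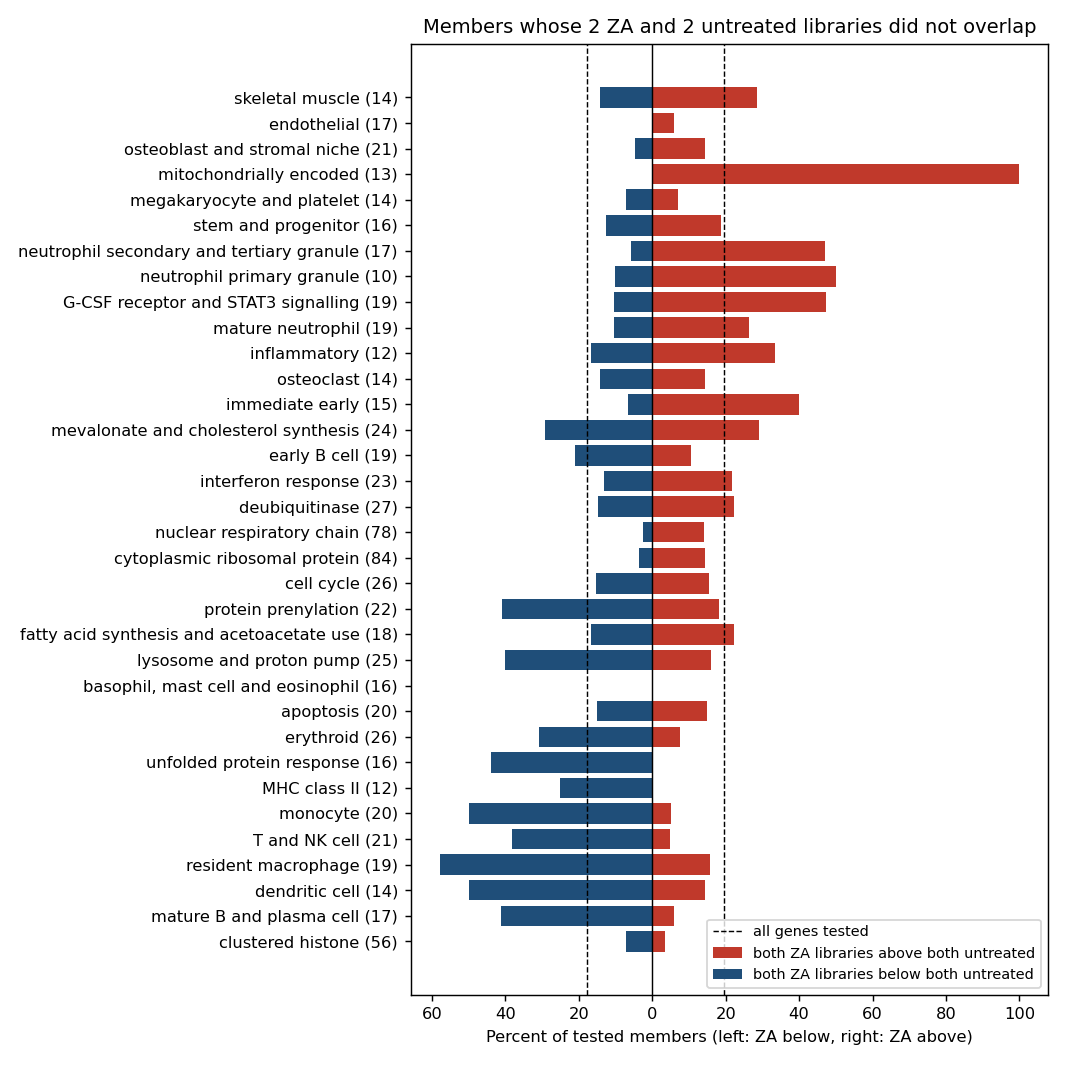
For each gene list (number of members tested in brackets), the percent of members with both ZA libraries above both untreated libraries (bars to the right) and below them (bars to the left), ordered by the median log2 difference. The dashed lines give the shares over all genes tested, 19.6% above and 17.7% below. In TMM-scaled CPM, all 13 genes of the mitochondrial genome lie to the right, and macrophage, monocyte and dendritic cell genes mostly to the left.

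The mevalonate pathway, which ZA blocks at Fdps, showed no shared direction. Of its 24 tested genes none was called, 7 lay above and 7 below without overlap (29.2% each), and the median log2 difference was 0.03, with a sign that changed between settings. Fdps itself was at 48.6 and 38.1 CPM with ZA, against 37.5 and 40.1 CPM untreated. The groups overlapped. Dhcr7, the reductase of a last step of cholesterol synthesis, was at 4.27 and 20.7 CPM with ZA, against 42.7 and 42.4 CPM untreated (log2 difference −1.75 ± 0.70, edgeR adjusted p = 0.505). Both ZA libraries lay below the untreated pair, ZA 2 far more so than ZA 3.

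Genes of protein prenylation also had a median near 0 (−0.05; 22 tested), with 4 above and 9 below (18.2% and 40.9%). The transferase subunit genes Fntb and Pggt1b were among the lower: Fntb, the beta subunit of farnesyltransferase, was at 19.4 and 19.8 CPM with ZA, against 27.1 and 32.5 CPM untreated. Pggt1b, that of the geranylgeranyl transferase, was at 4.82 and 6.78 CPM with ZA, against 10.6 and 11.1 CPM untreated. Rhoa, a GTPase that carries a geranylgeranyl group, was at 341 and 425 CPM with ZA, against 531 and 580 CPM untreated. Icmt, which methylates prenylated proteins, went the other way, at 50.0 and 40.6 CPM with ZA against 15.1 and 26.4 CPM untreated. None of these passed the test (edgeR adjusted p from 0.407 to 0.539).

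In the fatty acid list (18 tested, median −0.08) Aacs was the only call. Acly, which makes acetyl-CoA from citrate, was at 128 and 119 CPM with ZA, against 126 and 144 CPM untreated. Oxct1, which activates acetoacetate in mitochondria, was at 60.4 and 71.0 CPM with ZA, against 61.2 and 104 CPM untreated. Both genes overlapped between the groups.

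Osteoclast genes gave no difference that could be resolved. Of 18 genes 14 passed the filter on low counts, and Calcr, Dcstamp, Ocstamp and Oscar did not. Cathepsin K (Ctsk), the collagenase of osteoclasts, was at 3.45 and 10.2 CPM with ZA, against 4.07 and 3.10 CPM untreated. Acp5, the tartrate-resistant phosphatase, was at 74.0 and 58.7 CPM with ZA, against 81.3 and 54.7 CPM untreated. The groups overlapped for both, and the list's median of 0.17 changed sign without ZA 2.

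Macrophage, monocyte and dendritic cell genes were mostly lower with ZA. Of 19 resident macrophage genes 3 lay above and 11 below (15.8% and 57.9%), with a median of −0.34. Of 20 monocyte genes 1 lay above and 10 below (5% and 50%), with a median of −0.25, and of 14 dendritic cell genes 2 lay above and 7 below (14.3% and 50%), with a median of −0.39. All 3 medians kept their sign in the 7 settings but not their size: the macrophage median was −0.19 without untreated 1, the monocyte median −0.10 without untreated 2 and the dendritic cell median −0.24 without ZA 2. No member was called by edgeR. DESeq2 called Axl alone.

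Within the macrophage list, the iron exporter gene Slc40a1 was at 133 and 181 CPM with ZA, against 329 and 243 CPM untreated (log2 difference −0.86 ± 0.24, edgeR adjusted p = 0.356). Siglec1, the sialoadhesin of erythroblastic island macrophages, was at 13.4 and 11.0 CPM with ZA, against 16.5 and 21.2 CPM untreated. The F4/80 gene Adgre1 was at 51.5 and 32.9 CPM with ZA, against 64.4 and 54.8 CPM untreated. These 3 genes separated the groups, while the complement gene C1qa, at 54.4 and 63.0 CPM with ZA against 83.8 and 55.3 CPM untreated, did not. Maf, a transcription factor of macrophages, was on the other side, at 24.4 and 43.9 CPM with ZA against 17.6 and 21.2 CPM untreated.

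Among monocyte genes, Irf8, a transcription factor of monocyte and dendritic cell fate, was at 178 and 188 CPM with ZA, against 206 and 337 CPM untreated. The coagulation factor gene F13a1 was at 191 and 147 CPM with ZA, against 227 and 266 CPM untreated, and the pore-forming protein gene Mpeg1 at 296 and 280 CPM with ZA, against 363 and 459 CPM untreated. The CSF-1 receptor gene Csf1r, at 113 and 97.5 CPM with ZA against 99.4 and 132 CPM untreated, and Ly6c2, at 538 and 441 CPM with ZA against 521 and 456 CPM untreated, overlapped. Of the dendritic cell genes, Siglech, a receptor of plasmacytoid cells, was at 11.7 and 20.0 CPM with ZA, against 28.5 and 35.1 CPM untreated. Ccr9, a chemokine receptor of the same cells, was at 3.17 and 6.22 CPM with ZA, against 10.8 and 9.95 CPM untreated. MHC class II genes had a median of −0.22 (−0.11 without untreated 2 and −0.39 without ZA 3), with 0 of 12 above and 3 below. The invariant chain gene Cd74 overlapped, at 445 and 544 CPM with ZA against 469 and 554 CPM untreated.

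Neutrophil granule genes were mostly higher with ZA. Of 10 primary granule genes 5 lay above and 1 below (50% and 10%), and of 17 secondary and tertiary granule genes 8 lay above and 1 below (47.1% and 5.88%), with a median of 0.24 in each list. The medians kept their sign in the 7 settings but came near that of all genes in some: the primary granule median was 0.04 without untreated 2, and the secondary and tertiary granule median 0.09 without ZA 2. No member was called by either tool. Myeloperoxidase (Mpo) was at 1210 and 1200 CPM with ZA, against 974 and 724 CPM untreated, and neutrophil elastase (Elane) at 525 and 453 CPM with ZA, against 430 and 333 CPM untreated. Lactoferrin (Ltf) was at 4990 and 4010 CPM with ZA, against 2940 and 3360 CPM untreated (log2 difference 0.51 ± 0.17, edgeR adjusted p = 0.447). Lipocalin 2 (Lcn2) was at 2450 and 2240 CPM with ZA, against 1600 and 1700 CPM untreated (0.51 ± 0.16, edgeR adjusted p = 0.407). Cathepsin C (Ctsc), which activates the granule proteases, was the primary granule gene on the other side, at 62.4 and 69.5 CPM with ZA against 107 and 116 CPM untreated.

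Of 19 mature neutrophil genes 5 lay above and 2 below (26.3% and 10.5%), with a median of 0.19 that was 0.11 without untreated 1 and 0.07 without ZA 2. The cytokine gene Il1b was at 44.8 and 29.5 CPM with ZA, against 17.8 and 14.5 CPM untreated (log2 difference 1.20 ± 0.31, edgeR adjusted p = 0.334, DESeq2 adjusted p = 0.0673). The chemokine receptor Cxcr4, which retains neutrophils in marrow, was at 226 and 176 CPM with ZA, against 331 and 265 CPM untreated. S100a8 overlapped, at 7260 and 7830 CPM with ZA against 7980 and 7430 CPM untreated. In the list of G-CSF receptor and STAT3 signalling 9 of 19 genes lay above and 2 below (47.4% and 10.5%; median 0.23, and 0.13 without untreated 1, 0.37 without untreated 2 and 0.10 without ZA 2). Cebpb and Cebpd, transcription factors of granulocyte production, were among them: Cebpd was at 101 and 83.9 CPM with ZA, against 58.5 and 53.9 CPM untreated, and Cebpb at 88.2 and 70.4 CPM with ZA, against 44.3 and 46.8 CPM untreated. The receptor gene Csf3r was at 261 and 187 CPM with ZA, against 142 and 205 CPM untreated, and Stat3 was lower, at 93.8 and 108 CPM with ZA against 110 and 159 CPM untreated. Immediate early genes, of which Junb belongs to both lists, had 6 of 15 above and 1 below (40% and 6.67%). Their median was 0.06, near the 0.01 of all genes, but 0.32 in centred log2 TPM.

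Lymphoid genes were mostly lower with ZA where the groups separated. Mature B and plasma cell genes had 1 of 17 above and 7 below (5.88% and 41.2%; median −0.62), and T and NK cell genes 1 of 21 above and 8 below (4.76% and 38.1%; median −0.33). The B and plasma cell median was −0.31 without untreated 2 and −0.34 without ZA 2, and the T and NK cell median −0.51 without ZA 3. The B cell surface genes Ms4a1 and Cd22 and the plasma cell regulator Irf4 separated the groups: Ms4a1, which encodes CD20, was at 50.3 and 53.8 CPM with ZA, against 90.8 and 70.3 CPM untreated, Cd22 at 29.6 and 48.0 CPM with ZA, against 59.4 and 103 CPM untreated, and Irf4 at 28.0 and 30.9 CPM with ZA, against 47.0 and 54.7 CPM untreated. Single libraries weighed in both lists. Immunoglobulin segments took 0.876% and 1.57% of TPM in ZA 2 and ZA 3, against 0.463% in untreated 1 and 4.16% in untreated 2, and Jchain was at 122 and 240 CPM with ZA, against 101 CPM in untreated 1 and 672 CPM in untreated 2. The T cell regulator Gata3 was at 0.551 and 1.24 CPM with ZA, against 27.1 CPM in untreated 1 and 0.979 CPM in untreated 2. The Jchain and immunoglobulin values were thus highest in untreated 2 and Gata3 in untreated 1. Mzb1, a chaperone of antibody-secreting cells, separated the groups like Irf4, at 35.0 and 28.8 CPM with ZA against 49.9 and 48.3 CPM untreated.

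Early B cell genes had a median of 0.02 (19 tested, 2 above and 4 below). Rag1, a subunit of the V(D)J recombinase, was at 44.5 and 42.0 CPM with ZA, against 60.8 and 72.5 CPM untreated. The transcription factor gene Bach2 was at 40.4 and 47.2 CPM with ZA, against 72.1 and 109 CPM untreated (log2 difference −1.05 ± 0.25, edgeR adjusted p = 0.288, DESeq2 adjusted p = 0.0192). Pax5, the regulator of B cell identity, was at 91.6 and 98.8 CPM with ZA, against 77.5 and 74.9 CPM untreated. Of the genes named here Pax5 was the one on the higher side.

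Erythroid genes had 2 of 26 above and 8 below (7.69% and 30.8%; median −0.18), and the sign did not hold in every setting (0.02 without untreated 1). The band 3 anion exchanger Slc4a1 was at 3290 and 4120 CPM with ZA, against 6060 and 9420 CPM untreated, and the transferrin receptor Tfrc at 622 and 572 CPM with ZA, against 1030 and 791 CPM untreated. Gata1 and the haem synthesis gene Alas2 did not share that direction: Gata1 was at 150 and 126 CPM with ZA, against 118 and 89.8 CPM untreated, and Alas2 at 3810 and 2790 CPM with ZA, against 3560 and 2710 CPM untreated.

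Among the ZA and untreated libraries, megakaryocyte, endothelial and stromal genes were highest in ZA 3. The summed level of the 14 megakaryocyte and platelet genes was 473 CPM in ZA 2 and 1400 CPM in ZA 3, against 887 and 577 CPM untreated. That of the 17 endothelial genes was 185 and 436 CPM with ZA, against 219 and 184 CPM untreated, and that of the 21 osteoblast and stromal genes 422 and 1110 CPM with ZA, against 546 and 481 CPM untreated. The integrin gene Itga2b was at 37.8 and 324 CPM with ZA, against 97.6 and 25.5 CPM untreated, and the niche chemokine Cxcl12 at 74.4 and 459 CPM with ZA, against 121 and 94.6 CPM untreated. In the 5 libraries with G-CSF the sums were 1610 to 2370 CPM for megakaryocyte genes, 363 to 614 CPM for endothelial genes and 808 to 1070 CPM for stromal genes, so ZA 3 lay nearer to these than ZA 2 or the untreated pair did. The medians of the 3 lists (0.46, 1.04 and 0.82) became −1.04, −0.32 and −0.55 without ZA 3. Col1a1, a collagen chain of bone, separated the groups, at 61.5 and 47.7 CPM with ZA against 35.7 and 18.6 CPM untreated (edgeR adjusted p = 0.458). Skeletal muscle genes, which flushed marrow can carry, summed to 24.3 and 17.1 CPM with ZA, against 13.3 and 14.2 CPM untreated.

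The genes of the mitochondrial genome were the list, among the 34, in which every member separated the groups. In all 13, in TMM-scaled CPM, both ZA libraries lay above both untreated libraries (100%, against 19.6% of all genes), with log2 differences from 0.43 to 1.43 and a median of 0.81. None was called by edgeR, and DESeq2 called 7. These genes are transcribed together from both strands of 1 circular molecule, so they are not 13 separate observations. Cytochrome c oxidase subunit 2 (mt-Co2) was at 1340 and 1280 CPM with ZA, against 582 and 538 CPM untreated (log2 difference 1.23 ± 0.24, edgeR adjusted p = 0.22, DESeq2 adjusted p = 0.000491). The complex I subunit gene mt-Nd6, the gene read from the light strand, was at 649 and 719 CPM with ZA, against 335 and 301 CPM untreated (1.10 ± 0.20, edgeR adjusted p = 0.189). Cytochrome b (mt-Cytb) was at 2440 and 2830 CPM with ZA, against 1650 and 1360 CPM untreated (0.81 ± 0.22, edgeR adjusted p = 0.341). The replicates of each group lay close for all 3.

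**Figure D3:**
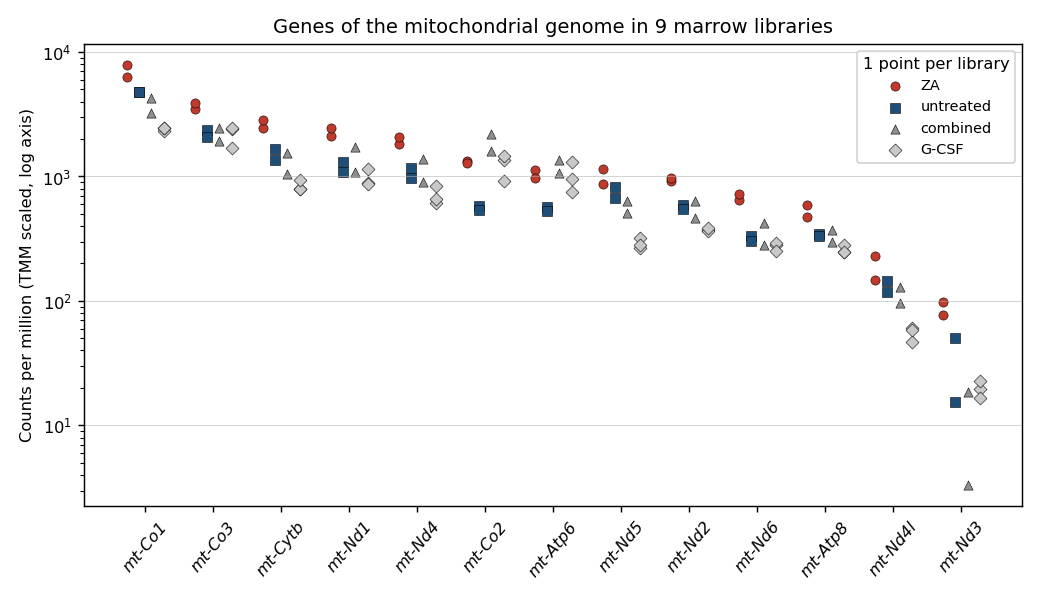
CPM (TMM scaled, log axis) of the 13 protein genes of the mitochondrial genome, 1 point per library: ZA (2), untreated (2), combined (2) and G-CSF (3). In every gene both ZA points lie above both untreated points. The combined points lie above all G-CSF points in 8 genes.

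In TPM 11 of the 13 separated the groups. mt-Nd5 overlapped, at 192 and 278 TPM with ZA against 75.2 and 210 TPM untreated, and so did mt-Nd4l, at 1020 and 1700 TPM with ZA against 409 and 1140 TPM untreated. On the TPM scale mitochondrial mRNA made up 2.70% and 3.54% of ZA 2 and ZA 3, against 0.949% and 2.04% of untreated 1 and untreated 2, and mitochondrial ribosomal and transfer RNA 2.95% and 2.92% with ZA, against 0.828% and 1.50% untreated. The group's median was 0.95 without untreated 1, whose small RNA share was high, and 0.69 to 0.80 without each of the other 3. The part of that library's small RNA in the difference was otherwise not tested. Respiratory chain subunits encoded in the nucleus had no such shared direction: of 78 tested 11 lay above and 2 below (14.1% and 2.56%), the median was 0.00, and Cox4i1, of the same complex as mt-Co2, was at 340 and 295 CPM with ZA against 418 and 265 CPM untreated. Cytoplasmic ribosomal protein genes had a median of −0.01 (84 tested).

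Among the remaining lists, genes of the unfolded protein response had 0 of 16 above and 7 below (43.8%; median −0.21, but −0.09 without ZA 3 and 0.07 in centred log2 TPM). The chaperone gene Hspa5 was at 412 and 387 CPM with ZA, against 545 and 538 CPM untreated. Lysosomal genes had 4 of 25 above and 10 below (16% and 40%; median −0.09, but 0.02 in centred log2 TPM). Cell cycle genes had 4 above and 4 below of 26 (15.4% each; median −0.05), and Mki67, the proliferation antigen, was at 839 and 882 CPM with ZA against 711 and 1230 CPM untreated. Interferon response genes had 5 of 23 above and 3 below (median 0.01), apoptosis genes 3 above and 3 below of 20 (median −0.17), and basophil, mast cell and eosinophil genes none on either side (16 tested). In the list of deubiquitinases (27 tested, 6 above and 4 below) Usp37 was the only call, and its relative Usp28 was at 5.24 and 6.67 CPM with ZA against 6.10 and 9.30 CPM untreated. Clustered histone genes, whose mRNAs mostly lack poly(A) tails, had a median of −0.64 that became 1.17 without untreated 1.

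Combined marrow was set against G-CSF marrow to ask whether the same genes differ with ZA in the presence of the cytokine. This comparison shares no library with that of ZA against untreated. Of 14737 genes 1 (0.00679%) was called by edgeR and 183 by DESeq2, and the edgeR count was 18 without G-CSF 3, 7 without ZA 2, 4 without ZA 3, 3 without combined 1, 2 without G-CSF 1 and 0 without G-CSF 2. None of the 24 named genes was called. Aacs was at 63.9 and 44.0 CPM in the combined libraries, against 66.6, 67.1 and 58.7 CPM with G-CSF, a log2 difference of −0.25 ± 0.20. Usp37 was at 23.0 and 26.9 CPM in the combined libraries, against 21.1, 27.8 and 28.7 CPM with G-CSF (−0.05 ± 0.22). For both genes these groups overlapped. Of the 24 genes 10 (41.7%) had the same sign in the 2 comparisons, against 45.0% of the 10473 genes of at least 5 CPM.

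**Figure D4:**
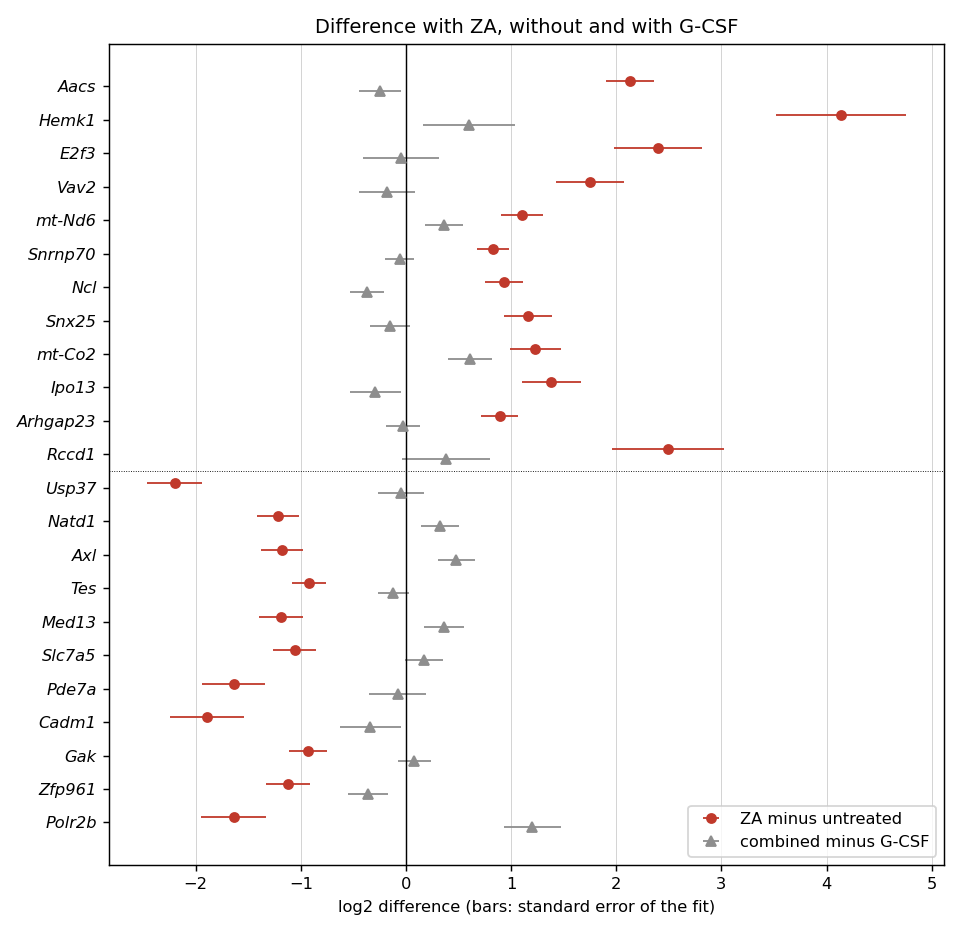
Log2 difference of ZA minus untreated (circles) and of combined minus G-CSF (triangles) for 23 of the 24 genes named by the rule, with the standard error of the edgeR fit as bars. The circles lie away from 0 because the genes were chosen for that difference. The triangles scatter around 0, with Polr2b at 1.20 the farthest from it.

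Axl had 49.6 and 55.8 CPM in the combined libraries, against 32.2, 44.9 and 36.3 CPM with G-CSF (log2 difference 0.48 ± 0.18, edgeR adjusted p = 0.412), the opposite sign to its difference without G-CSF. Polr2b was likewise opposite, at 130 and 127 CPM in the combined libraries against 80.7, 43.0 and 44.4 CPM with G-CSF. The mitochondrial genes had the same sign in both: 12 of 13 were positive in combined against G-CSF, with a median of 0.56 against −0.01 for all genes. Skeletal muscle genes had the same direction in that comparison: all 14 tested were positive (median 2.55), with summed levels of 387 and 242 CPM in the combined libraries, against 88.1, 62.5 and 36.4 CPM with G-CSF, and their part in the mitochondrial difference was not tested. The neutrophil granule lists had the opposite sign, with medians of −0.47 for primary granule genes and −0.36 for secondary and tertiary granule genes. Resident macrophage and monocyte genes had medians of −0.26 and −0.21, and dendritic cell genes 0.01. The interaction of ZA and G-CSF, the test of whether the 2 differences differ, called 1 of 14737 genes (0.00679%), Gm20431, and DESeq2 called 245. The edgeR count for the interaction was 10 without untreated 1, 6 without combined 1, 3 without G-CSF 1, and 0 without ZA 2 or ZA 3.

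In the table of sorted precursors ZA was compared with untreated in 7 libraries, 5 with ZA and 2 untreated, as a setting in which monocyte lineage cells should dominate. Of these, 3 went against their label: the libraries labelled precursors ZA 5, ZA 7 and untreated 7 had 124000 to 190000 TPM of Hbb-bs and 7.87 to 17.9 TPM of Csf1r, where the other 4 had 1230 to 5680 TPM of Hbb-bs and 63.0 to 70.0 TPM of Csf1r, the gene of the CD115 antigen used in the sort. No gene of 18954 was called by edgeR (0%), with 785 at an unadjusted p under 0.05 and 12 called by DESeq2. Without the 3 libraries 1 gene was called, and without the library labelled untreated 2, 78 were. Each of these fits leaves 1 untreated library, for the 78 the one labelled untreated 7 with its marrow level of Hbb-bs, and assumes that it varies like the other groups.

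**Figure D5:**
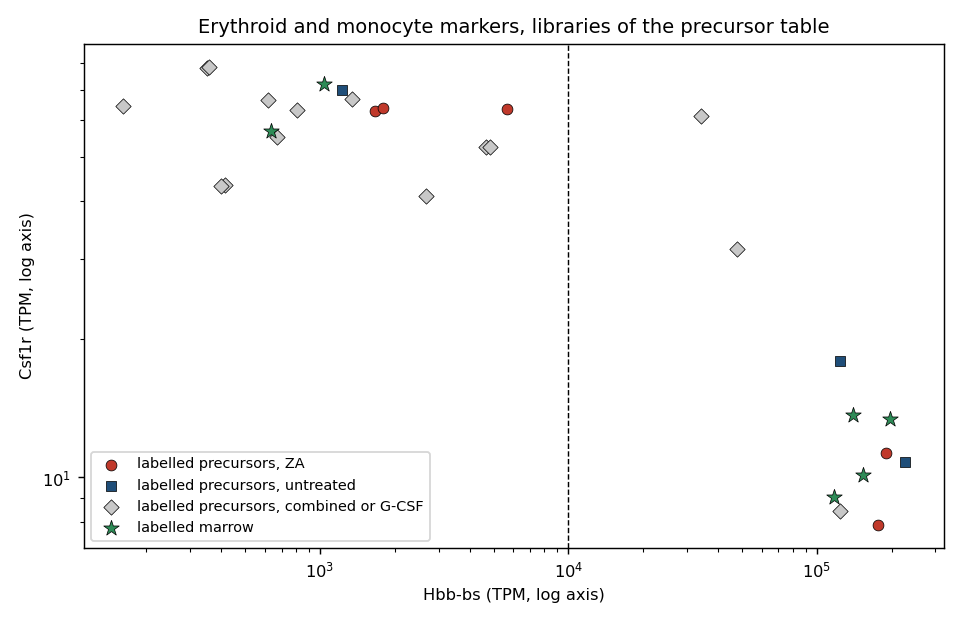
Hbb-bs against Csf1r (TPM, both axes log) in the 29 libraries of the table that holds the precursors, marked by label. The dashed line is at 10000 TPM of Hbb-bs: 7 of 23 libraries labelled precursors lie above it, and 2 of 6 labelled marrow lie below it.

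Aacs was at 43.7, 57.9 and 58.7 CPM in precursors ZA 3, ZA 6 and ZA 8, and at 67.8 and 39.1 CPM in those labelled ZA 5 and ZA 7, against 40.2 CPM in untreated 2 and 14.5 CPM in the library labelled untreated 7. The log2 difference was 0.99 ± 0.38 with all 7 and 0.30 ± 0.34 without the 3, against untreated 2 as the lone untreated library (edgeR adjusted p = 1 and 0.934). Usp37 differed by −0.15 ± 0.41 with all 7 and by −0.26 ± 0.52 without the 3 (edgeR adjusted p = 1 and 0.973). Of the mitochondrial genes, mt-Nd6 was at 446, 474 and 477 CPM in ZA 3, ZA 6 and ZA 8, and at 1080 and 341 CPM in those labelled ZA 5 and ZA 7, against 429 and 447 CPM in those labelled untreated 2 and untreated 7.

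Marrow samples sequenced again give no independent repeat. The run 1 marrow libraries of that table are the same libraries as ZA 2 and untreated 2 (8288160 and 6829651 estimated counts there, against 8288159 and 6829649 here). In run 2 the library labelled marrow untreated 2 had 1040 TPM of Hbb-bs and correlated more closely with precursor untreated 2 (r = 0.968) than with its own run 1 library (r = 0.773), so no direction was drawn from it. The library labelled marrow ZA 2 of run 2 was marrow-like, with 140000 TPM of Hbb-bs. Its nearest library was the one labelled precursor ZA 7 of run 2 (r = 0.923), not marrow ZA 2 of run 1. The megakaryocyte gene Pf4 was at 500 TPM in it, against 37.8 TPM in marrow ZA 2 of run 1. Whether these 2 libraries come from the same sample was not tested. In CPM without TMM scaling, Aacs was at 20.2 and Usp37 at 50.6 in the run 2 library, against 58.9 and 14.1 CPM in ZA 2 of run 1. The library labelled precursor untreated 2 of run 2, whose nearest library was marrow untreated 2 of run 1 (r = 0.935), had 29.8 CPM of Aacs and 17.5 CPM of Usp37, against 13.7 and 78.6 CPM in that marrow library. The library labelled precursor ZA 5 of run 2, whose nearest library was marrow ZA 2 of run 1 (r = 0.948), had 39.3 CPM of Aacs and 14.8 CPM of Usp37, against 58.9 and 14.1 CPM in that marrow library. Usp37 was thus close between libraries in this last pair, and not in the other 2 pairs. In the libraries labelled marrow ZA 2, mt-Nd6 was at 298 CPM in run 2 and 556 CPM in run 1, and mt-Cytb at 959 and 2110 CPM. Marrow untreated 2 of run 1 had 267 and 1220 CPM of these genes. mt-Co2 was not lower in the run 2 library, at 1310 and 1160 CPM, against 480 CPM in that untreated library. Axl was at 105 and 40.5 CPM, against 95.3 CPM. Hemk1, high in both ZA libraries above, was at 1.23 CPM in run 2 and 15.6 CPM in run 1, against 0.449 CPM. In the libraries labelled precursor ZA 5 and ZA 7 Hemk1 was at 2.52 and 2.54 CPM. It was at 1.24 CPM in the library labelled precursor untreated 7 and 1.20 CPM in precursor untreated 2 of run 2. Precursor ZA 5 had 629 CPM of mt-Nd6 and 2040 CPM of mt-Cytb, and precursor untreated 2 of run 2 had 349 and 1180 CPM. H3f3aos was at 21.4 CPM in precursor ZA 5, against 1.38 CPM in marrow ZA 2 of run 1. It was at 8.48 CPM in precursor untreated 2 of run 2, against 18.5 CPM in marrow untreated 2 of run 1. The library labelled marrow ZA 2 of run 2 had 0.505 CPM of this gene.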

How the data were processed

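RNA was measured in 9 whole marrow libraries in 4 groups and, in a separate table, in sorted precursors. The deposited tables hold estimated counts and TPM per gene, as the authors made them. The submitters' processing notes name Salmon, the mm10 build and DESeq2 1.16.1 without saying what each was used for, and the Salmon version and strand setting are not given in the sources used here. Any misplaced reads between overlapping or near-identical genes would carry into both units. Every sample column in use was matched by its name (0 columns not used). Estimated counts were rounded. Symbols came from the GENCODE vM21 annotation (47310 of 47729 identifiers, 99.1%).

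Genes passing filterByExpr (minimum count 10, total 15) were tested with edgeR 4.0.16 (robust quasi-likelihood, TMM) in R 4.3.3, with the 4 groups in 1 model (5 residual degrees of freedom) and Benjamini-Hochberg adjustment over all genes tested. Precursors were fitted with sequencing run as a term. DESeq2 1.42.0, limma 3.58.1 on log2(TPM + 1), other filters and scalings, leaving out each library and a replicate block were alternatives. On simulated counts for the marrow comparison (14565 genes), 11 of 100 genes changed 2-fold and 50 of 100 changed 4-fold were called, with 3 unchanged genes called. Intervals of 3 counts cover counting error only.

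Named genes were those called, the 12 higher and 12 lower protein-coding genes with the smallest p at 5 CPM or more without overlap (leaving out predicted gene models and receptor segments), fixed anchors and up to 4 members of each list by p, and list members called by DESeq2. Overlapping and parent genes were added beside them. The comparison, lists and rule were chosen with earlier results of these data known. Some genes that the rule names are not reported here.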

Additional observations from a re-analysis of the deposited data

Results flagged for a closer look

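In the precursors given ZA, 30 genes were checked for a library far from the other 4, and 5 were flagged, where chance flags about 1 in 20. In each it was the library labelled ZA 5, which carried 176000 TPM of Hbb-bs. All but E2f3 are genes of the mitochondrial genome. The flags are therefore not separate observations, and their number cannot be read against the rate by chance. E2f3 was at 111 CPM there, against 11.3 to 34.5 CPM in the others. mt-Nd6 was at 1080 CPM there, against 341 to 477 CPM. mt-Nd1 was at 3080 CPM there, against 790 to 1450 CPM. mt-Nd4 was at 2650 CPM there, against 655 to 1220 CPM. mt-Atp6 was at 1740 CPM there, against 919 to 1090 CPM.

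Gm20431, a readthrough gene that overlaps Ube2v1, was flagged because its difference departed between marrow with and without G-CSF (interaction of 10.78 ± 0.77 on the log2 scale, edgeR adjusted p = 0.0205). It was at 3.31 and 4.30 CPM with ZA, against 13.6 and 16.6 CPM untreated, and at 4.82 and 7.06 CPM in the combined libraries, against 0 in all 3 G-CSF libraries, so the fitted size depends on the prior count. Ube2v1 was at 151 and 125 CPM with ZA, against 126 and 138 CPM untreated.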

How the results depend on the processing

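The 5 genes called in ZA against untreated marrow became 130 with DESeq2, 634 without the filter on low counts, 2 among protein-coding genes alone (Aacs and Usp37), 22, 17 and 43 by limma on log2(TPM + 1), log2(TPM + 0.1) and log2(TPM + 1) without a filter, 2 with the ZA and untreated libraries alone, and 0 to 23 when each library was left out. They remained 5, the same genes, with RLE size factors. Combined against G-CSF (1 gene) gave 183 with DESeq2, 557 without the filter, 6 among protein-coding genes, 23, 6 and 49 on the 3 TPM scales, and 0 to 18 with a library left out. The interaction (1 gene) gave 245 with DESeq2, 746 without the filter, 9, 9 and 42 on the TPM scales, and 0 to 10 with a library left out. Precursors (0 genes) gave 12 with DESeq2, 1 without the libraries above 10000 TPM of Hbb-bs (an alternative chosen after seeing the data), and 0 to 78 with a library left out, the highest with 1 untreated library remaining. The cause of these changes was not tested. Deviations of same-numbered marrow libraries from their group means had correlations from −0.039 to 0.112. In a group of 2 libraries the deviations mirror each other, so this check has little power to show pairs. The labels name no pairs, and the replicate numbers were not read as such. With a replicate block the counts were 0, 0, 3 and 0 in the order above. Over 241 genes named or listed and 4281 comparisons with an alternative, 3850 kept their direction and side of the threshold, 53 lost a call, 82 gained one, none reversed a call, and 296 changed sign with no call on either side. With 2 libraries a side, 11 of 100 simulated 2-fold changes were called, so a gene not called may differ by 2-fold or more.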

Other observations

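Interferon response genes had a median log2 difference of −1.06 in combined against G-CSF marrow and of 0.01 in ZA against untreated marrow. The first was −0.76 in centred log2 TPM, and for all genes it was −0.01 by edgeR. edgeR called no member in either comparison. The G-CSF libraries differed: Isg15 was at 14.8 and 15.1 CPM in the combined libraries, against 47.7, 38.3 and 16.5 CPM with G-CSF. Ddx58 was instead highest in G-CSF 3, at 35.7 CPM.

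The small RNA gene Mir6236 held much of the small RNA share, at 32400 and 24700 TPM in ZA 2 and ZA 3, against 164000 TPM in untreated 1 and 7890 TPM in untreated 2.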
